A study of Rattus norvegicus with 8 samples.

Results

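The homeostatic microglia genes are the set by which resting microglia, the resident macrophages of the brain, are usually recognised. They were taken here as Tmem119, P2ry12, P2ry13, Cx3cr1, Csf1r, Sall1, Gpr34, Selplg and Olfml3, and each was measured through the brightest probe matched to its rat symbol, judged by the mean log2 signal of both channels over 8 arrays. Of these 9 genes, 8 had a matched probe among the 15159 named genes of the array. No probe was matched to Selplg, so it was not analysed here. Tmem119 and Csf1r had a second probe each.

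The study asked which hypothalamic genes respond to retinoic acid (RA), the active metabolite of vitamin A. Male F344N rats held in short days received a single injection of 5 µl into the third ventricle and were killed 24 hrs later, 4 rats with all-trans RA and 4 with vehicle. The labels give RA at 1e-05 M and saline as the vehicle, whereas the study's methods give RA at 1e-04 M in saline with 10% DMSO. All rats of both groups had been fitted with a cannula, and its placement tested with angiotensin, in the time before the injection. RNA from hypothalamic blocks that included the arcuate nuclei was compared on 2-colour arrays, each with an RA and a vehicle channel. On arrays 1, 3, 6 and 8 RA was in Cy5, and on arrays 2, 4, 5 and 7 RA was in Cy3. The sources used here do not say which arrays carry the same RNA, so the 8 arrays are not 8 independent comparisons.

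Microglia live under the control of CSF1 and IL-34, which both act on CSF1R, and of TGF-beta from their surroundings, with the transcription factors PU.1 (gene Spi1) and SALL1 holding their identity. In this state they express purine receptors, P2RY12 and P2RY13, that read ADP, and the fractalkine receptor CX3CR1, which reads a ligand displayed by neurons. Many of these genes are known to fall when microglia leave the resting state, while general myeloid genes such as Aif1, Cd68 and Tyrobp are shared with other macrophages. In tissue blocks, fewer cells of a type and less RNA per cell cannot be told apart.

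RefSeq (GRCr8) gave a sequence for the 250 bases before the start of 5 of the members, P2ry13, Cx3cr1, Csf1r, Gpr34 and Olfml3. They were searched on both strands for GAGGAA, the core of the PU.1 site, and for AGGTCA, the half-site of the retinoic acid receptors. The PU.1 core is held by 23.3% of all 33469 promoters of this length and the receptor half-site by 14.1%. GAGGAA was present in 2 of the 5 promoters, those of Csf1r and Gpr34, and AGGTCA in 0 of the 5. Csf1r and Gpr34 are shown because they hold the PU.1 letters. A further reason is that Spi1, the gene of PU.1, had an unadjusted p under 0.01 in limma's test. Its adjusted p was 0.268, and whether PU.1 acts on either gene was not tested. Both are printed 5′ to 3′ on the gene's own strand, Csf1r from chr18:56834129-56834378 (plus strand) and Gpr34 from chrX:11785837-11786086 (minus strand), and capitals mark the PU.1 core, which reads TTCCTC because it lies on the opposite strand.
Csf1r: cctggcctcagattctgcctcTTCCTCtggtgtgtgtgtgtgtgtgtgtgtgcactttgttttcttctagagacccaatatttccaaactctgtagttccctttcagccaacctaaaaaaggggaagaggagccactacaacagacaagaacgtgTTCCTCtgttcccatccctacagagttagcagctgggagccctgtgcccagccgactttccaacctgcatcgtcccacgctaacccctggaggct
Gpr34: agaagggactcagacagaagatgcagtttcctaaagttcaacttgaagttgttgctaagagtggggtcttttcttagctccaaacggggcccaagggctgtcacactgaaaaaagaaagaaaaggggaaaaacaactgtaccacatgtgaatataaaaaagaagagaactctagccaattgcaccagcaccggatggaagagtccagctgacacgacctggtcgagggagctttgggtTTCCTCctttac

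Some arrays stood apart before any microglial gene was considered. Genes of the choroid plexus (11 measured) had a median log2 ratio, RA over vehicle, of -1.35 and -1.27 on arrays 6 and 7, against 0.03 to 0.49 on the other 6 arrays. The median of 15 hypothalamic genes was -0.58 on array 5 and -0.60 on array 8, against -0.02 to 0.18 on the others. Arrays 6 and 7 are of opposite dye order, as are arrays 5 and 8. Their ratios over all probes correlated at r = 0.62 and 0.55, against 0.10 for arrays 1 and 2 and 0.09 for arrays 3 and 4. Whether such arrays carry the same RNA was not tested. The share of probes well above background was between 57.4 and 74.6% in the RA channels and between 61.2 and 74.5% in the vehicle channels, and 1 slide held all arrays, with arrays 1 to 4 on its first row and arrays 5 to 8 on its second. All 8 measured members were well above background in the vehicle channel of every array.

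Of the 8 measured homeostatic genes, 1 was lower after RA and 0 were higher at an unadjusted p under 0.01, the threshold of the study's methods. Tmem119 fell to 0.699-fold of vehicle. Over all 15159 named genes the same rule called 4.31%, with 3.52% higher and 0.792% lower, and over all probes 3.25%, with 2.61% higher and 0.645% lower, so that 1 call among 8 genes carries little weight as a count. The median log2 fold change of the 8 genes was -0.09, and 2 of them (Cx3cr1 and Csf1r) were above 0, beside a median of -0.0047 over all named genes. No probe of the 30367 tested had an adjusted p under 0.05 in limma's test with Benjamini-Hochberg adjustment, where the lowest adjusted p was 0.222, although 13.1% of named genes had an unadjusted p under 0.05. That count depends on the model. With a random block of the pair, where the largest p over the pairings was also kept, 238 probes and 0 members passed the adjusted threshold. With the 8 arrays taken as independent, which they are not, 935 probes and 1 member passed. RA and vehicle levels overlapped for every member, as they did for all but 0.264% of named genes.

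**Figure D1:**
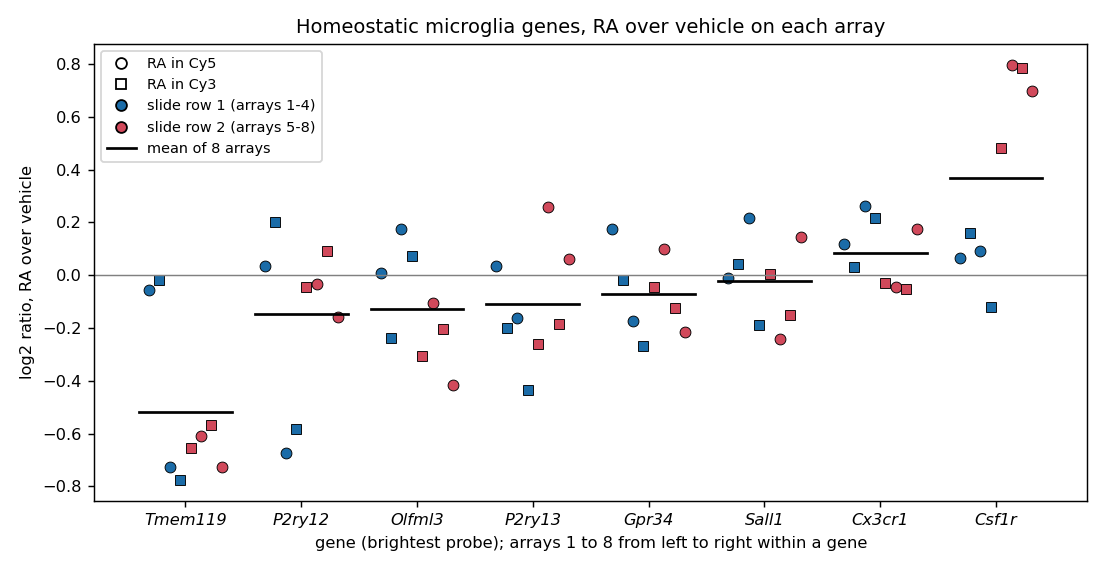
Log2 ratio of RA over vehicle (vertical axis) for the brightest probe of the 8 measured homeostatic microglia genes (horizontal axis), with arrays 1 to 8 from left to right within a gene. Circles are arrays with RA in Cy5 and squares with RA in Cy3, blue is slide row 1 and red slide row 2, and the line is the mean of 8 arrays; Tmem119 lies below 0 on 8 of 8 arrays, and the Csf1r ratios of slide row 2 all lie above those of row 1.

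Tmem119 encodes a transmembrane protein that marks microglia and is absent from most other macrophages. With RA in Cy5 its log2 ratios were -0.06, -0.73, -0.61 and -0.73 on arrays 1, 3, 6 and 8. With RA in Cy3 they were -0.02, -0.78, -0.65 and -0.57 on arrays 2, 4, 5 and 7. All 8 ratios were below 0, a pattern seen in 1.8% of named genes, where 4.07% were above 0 on every array. Both dye orders held 1 array near 0 and 3 at or below -0.57. Since arrays of both dye orders may carry the same RNA, the dye orders do not count as separate comparisons. The dye orders had near-equal means, -0.53 in Cy5 and -0.50 in Cy3.

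The log2 fold change of Tmem119 was -0.52 (SE 0.11, 95% interval -0.78 to -0.25), with an adjusted p = 0.257 in limma's test. Since the sources do not pair the arrays, the model was fitted for all 24 ways of pairing arrays of opposite dye order, and the largest p is given. Before adjustment this was 0.00234, which ranked 209 among the named genes, and it was under 0.01 in 24 of 24 pairings. An exact two-sided permutation test that flips the sign of the 4 pair means gave p = 0.125 in every pairing, the smallest that 4 pairs allow.

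The levels show in which channel Tmem119 varied. Its normalised log2 level in vehicle lay between 8.91 and 9.17 (SD 0.09, n = 8 arrays), and in RA between 8.18 and 9.11 (SD 0.38). In RA the level was 9.11 on array 1 and 9.08 on array 2, within the range of the vehicle channels. On the other 6 arrays it lay between 8.18 and 8.41, below every vehicle value. Without arrays 6 and 7 the log2 fold change was -0.49, and without arrays 8 and 5 it was -0.46. In both cases Tmem119 was not called, and 0 of 8 members were.

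**Figure D2:**
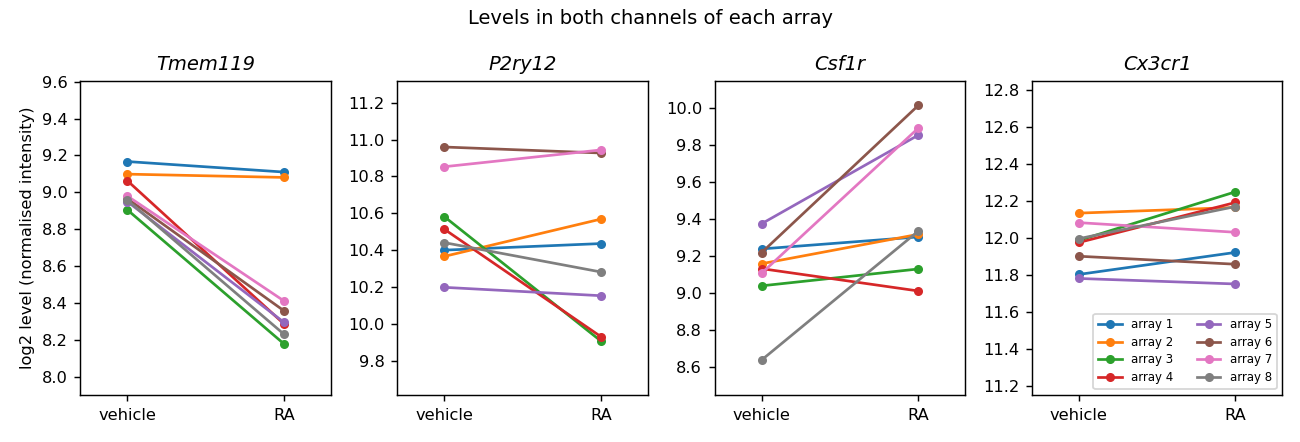
Normalised log2 level (vertical axis) in the vehicle and RA channel of each array for Tmem119, P2ry12, Csf1r and Cx3cr1, with a line and a colour for each array. Tmem119 ends between 8.18 and 8.41 in RA on arrays 3 to 8, while arrays 1 and 2 stay at 9.11 and 9.08; levels are not comparable between the 4 genes.

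P2ry12 and P2ry13 encode receptors for ADP, and through P2RY12 microglial processes are drawn to sites of injury. The log2 ratios of P2ry12 were 0.04, -0.67, -0.03 and -0.16 on the arrays with RA in Cy5 and 0.20, -0.58, -0.05 and 0.09 on those with RA in Cy3. Arrays 3 and 4 held the low values and the other 6 arrays lay between -0.16 and 0.20. Its log2 fold change was -0.15 (SE 0.12, 95% interval -0.42 to 0.13, adjusted p = 0.742 in limma's test) and turned to 0.015 without arrays 3 and 4. Arrays 3 and 4 were also low for Trem2, a lipid-sensing receptor of microglia that is counted below among the pan-myeloid genes. Its values there were -1.16 and -1.44, beside values between -0.40 and 0.45 on the other arrays. What arrays 3 and 4 share was not tested.

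For P2ry13 the ratios were 0.03, -0.16, 0.26 and 0.06 with RA in Cy5 and -0.20, -0.43, -0.26 and -0.18 with RA in Cy3. These dye orders did not overlap, with means of 0.05 and -0.27. P2ry13 was the 1 member of 8 with such a split, which 16.2% of named genes also had, and the RA channel was well above background on 7 arrays. Its log2 fold change was -0.11 (SE 0.06, 95% interval -0.26 to 0.03, adjusted p = 0.588 in limma's test).

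Cx3cr1, the fractalkine receptor, had ratios of 0.12, 0.26, -0.04 and 0.17 with RA in Cy5 and 0.03, 0.22, -0.03 and -0.05 with RA in Cy3. Its 8 values spanned the narrowest range of all members, and its log2 fold change was 0.08 (SE 0.06, 95% interval -0.05 to 0.22, adjusted p = 0.674 in limma's test). Gpr34, a receptor for lysophosphatidylserine, had ratios between -0.27 and 0.17 and a log2 fold change of -0.07 (SE 0.06, 95% interval -0.21 to 0.07, adjusted p = 0.759 in limma's test).

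Csf1r, the receptor on which microglial survival depends, was the member with the highest ratios. They were 0.06, 0.09, 0.80 and 0.70 with RA in Cy5 and 0.16, -0.12, 0.48 and 0.79 with RA in Cy3. The arrays split by slide row rather than by dye, with row 1 between -0.12 and 0.16 (mean 0.05) and row 2 between 0.48 and 0.80 (mean 0.69). Csf1r was the 1 member of 8 whose rows did not overlap, which 7.43% of named genes also showed. Its log2 fold change was 0.37 (1.29-fold, SE 0.13, 95% interval 0.06 to 0.68), with an adjusted p = 0.379 in limma's test. Before adjustment its largest p was 0.0257, so it was not called, and the exact permutation test of its 4 pair means gave at most p = 0.25. On row 2 alone it was 0.69 and passed the threshold, and on row 1 alone it was 0.05 and did not, while its p was under 0.01 in 18 of the 24 pairings. Slide row and the rats placed on it cannot be told apart.

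Sall1, the transcription factor that maintains microglial identity, had ratios between -0.24 and 0.22 and a log2 fold change of -0.02 (SE 0.06, 95% interval -0.17 to 0.13, adjusted p = 0.949 in limma's test). Its sign depended on the arrays used. Olfml3, a secreted glycoprotein of the extracellular matrix, had ratios of 0.01, 0.18, -0.11 and -0.42 with RA in Cy5 and -0.24, 0.07, -0.31 and -0.20 with RA in Cy3. Its mean was 0.0050 on row 1 and -0.26 on row 2, with a log2 fold change of -0.13 (SE 0.08, 95% interval -0.31 to 0.05, adjusted p = 0.630 in limma's test).

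Across arrays, the median log2 ratio of the 8 members ran from -0.23 on array 4 to 0.03 on array 1. Tmem119 was the lowest member on 7 arrays, and Olfml3 on array 2. Csf1r was the highest member on arrays 5 to 8 and Cx3cr1 on arrays 3 and 4. Arrays 1 and 2, where Tmem119 was near 0, held no member beyond 0.24 on the log2 scale in either direction.

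**Figure D3:**
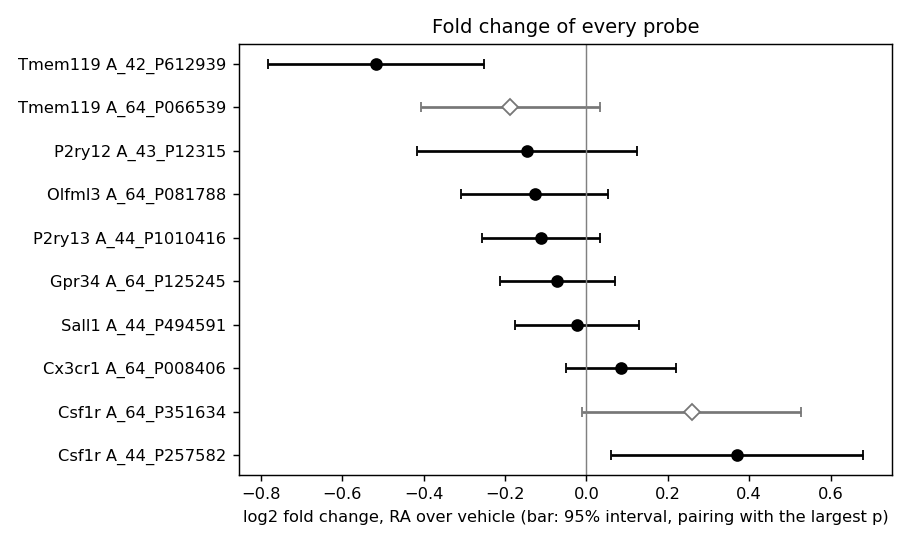
Log2 fold change, RA over vehicle (horizontal axis), of the 10 probes of the homeostatic microglia genes, with 95% intervals from the pairing with the largest p. Filled circles are the brightest probe of each gene and open diamonds the second probes of Tmem119 and Csf1r, which have the same sign as, and lie nearer to 0 than, the brightest probe.

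The 2 probes of a gene were compared because both read the same RNA. The brightest Tmem119 probe was printed in 10 spots and the second in 1 spot. The second probe gave -0.09, -0.23, 0.01 and -0.54 with RA in Cy5 and 0.07, -0.33, -0.49 and 0.11 with RA in Cy3. It was above 0 on arrays 2, 6 and 7, so that both probes had the same sign on 5 of 8 arrays, and it was the higher of the pair on 7, by up to 0.68. Its log2 fold change was -0.19 (SE 0.09, adjusted p = 0.537 in limma's test), which did not pass the threshold. With the probes of each gene averaged, the log2 fold change of Tmem119 was -0.35 and passed the threshold.

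The Csf1r probes were closer in sign. The second probe, in 1 spot that was an outlier and left out on array 1, gave 0.32, 0.78 and 0.21 on arrays 3, 6 and 8 and 0.23, -0.35, 0.25 and 0.34 on arrays 2, 4, 5 and 7. Both probes shared their sign on 7 of 7 arrays, and the difference between them lay between -0.48 and 0.23. Its log2 fold change was 0.26 with arrays 1 and 2 dropped as the pair that holds array 1. The SE of 0.11 and the adjusted p = 0.485 in limma's test are from the pairing with the largest p. That pairing may drop another array with array 1. Unlike the brightest probe, its slide rows overlapped.

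Among 15 ligands and signalling partners of these receptors, 2 were higher, 0 were lower and the median log2 fold change was 0.03. Csf1, a ligand of CSF1R, had ratios between -0.01 and 0.71 and rose by 0.36 (SE 0.09, adjusted p = 0.276 in limma's test). Pla1a, the phospholipase that makes the lysophosphatidylserine read by GPR34, had ratios between 0.26 and 1.24 and rose by 0.80 (SE 0.13, adjusted p = 0.222). The other ligand of CSF1R, Il34, had a log2 fold change of -0.02 (adjusted p = 0.946), and Cx3cl1, which encodes fractalkine, 0.01 (adjusted p = 0.978). The TGF-beta ligand Tgfb1 was at 0.31 (adjusted p = 0.339) and its receptor Tgfbr1 at -0.10 (adjusted p = 0.621), neither past the threshold.

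Of 7 measured microglia transcription factors, 2 were higher and 0 lower, with a median of 0.16. Spi1, the gene of PU.1, rose by 0.60 (SE 0.14, adjusted p = 0.268 in limma's test), with ratios between -0.01 and 1.08. Runx1 was at 0.47 (adjusted p = 0.321) and Irf8, which acts with PU.1, at 0.16 (adjusted p = 0.540). Spi1 was well above background in 7 RA and 5 vehicle channels, and Irf8 in 5 and 2, which limits their ratios. Of the 7 factors, 3 were well above background in the vehicle channel of every array. The count of higher factors was 0 without arrays 6 and 7 and 0 without arrays 8 and 5, where 1 factor, Mef2a, was lower (-0.22).

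A further list of 14 measured homeostatic genes had 2 higher, 0 lower and a median of -0.01. P2ry6, the UDP receptor that triggers phagocytosis, rose by 0.91 (SE 0.17, adjusted p = 0.227 in limma's test), and its ratios ran from 0.33 to 1.42. Slc2a5, the fructose transporter, was at 0.17 (adjusted p = 0.442).

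General myeloid genes had another range of ratios on the same arrays. Of 13 pan-myeloid genes, 10 were higher and 0 lower, with a median log2 fold change of 0.88, and 12 were above 0. Laptm5 (0.39), Ctss (0.19) and Trem2 (-0.34) were not called. Tyrobp, a signalling adaptor, rose by 1.08 (SE 0.18, adjusted p = 0.222 in limma's test), C1qb, a complement component, by 1.03 (SE 0.12, adjusted p = 0.222) and Cd14 by 1.43 (SE 0.21, adjusted p = 0.222). The list's array medians ranged from 0.39 to 0.66 on row 1 and from 1.18 to 1.34 on row 2, the row with the higher Csf1r ratios. The log2 of its summed levels was 15.2 to 15.9 in vehicle and 15.5 to 16.9 in RA. For the 8 homeostatic genes it was 12.9 to 13.3 in both. Sums over lists of 13 and 8 genes are not comparable with each other. Bright genes weigh most in such a sum. Among the homeostatic genes Cx3cr1 had a mean log2 level of 11.96 in vehicle, against 9.01 for Tmem119. The count was 9 without arrays 6 and 7, also 9 without arrays 8 and 5, and 4 with Agilent's log ratio. Of 13 activated microglia genes, 4 were higher and 0 lower, with a median log2 fold change of 0.34. Those called were Spp1 at 2.20, Lgals3 at 1.83, Gpnmb at 1.77 and Cd63 at 0.34. The genes not called ran from -0.03 for Lpl and Apoe, over 0.06 for Axl and Cd9, to 1.07 for Cd74. Array medians of this list were -0.10 to 0.13 on row 1 and 0.35 to 0.76 on row 2. Its count was 2 without arrays 6 and 7, 1 without arrays 8 and 5, and 1 with Agilent's log ratio.

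**Figure D4:**
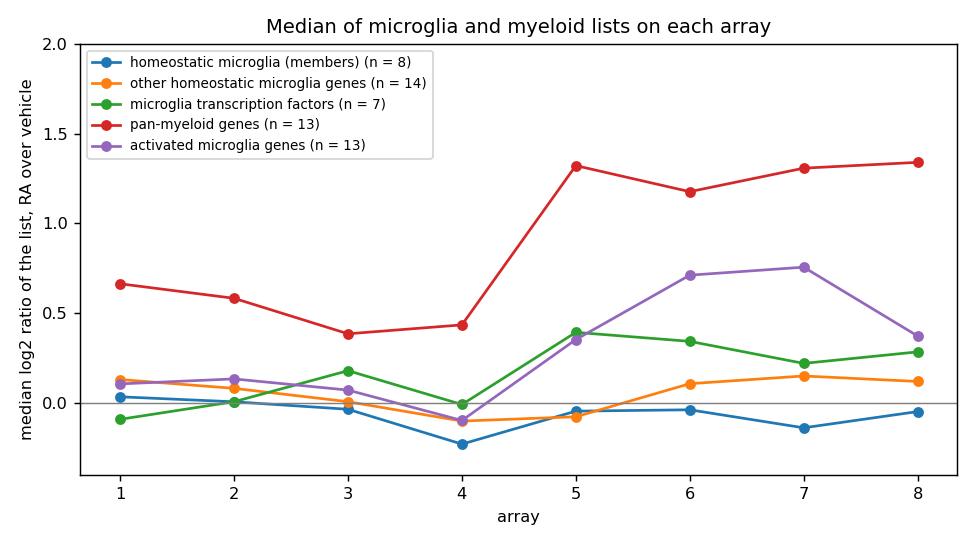
Median log2 ratio of RA over vehicle (vertical axis) of 5 gene lists on arrays 1 to 8 (horizontal axis), with the number of measured genes of each list in the key. The homeostatic microglia genes stay between -0.23 and 0.03 on all arrays, while the pan-myeloid genes range from 0.39 to 0.66 on slide row 1 (arrays 1 to 4) and from 1.18 to 1.34 on slide row 2.

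Markers of other cells that share myeloid genes were also measured. Of 8 monocyte markers 4 were higher (Plac8, S100a4, F10 and Fn1). The log2 of the list's summed levels was 11.7 to 12.4 in vehicle and 11.9 to 13.7 in RA. Ccr2, a defining receptor of monocytes, was well above background in 1 RA and 0 vehicle channels. Ly6c, another monocyte marker, was well above background in 5 RA and 1 vehicle channels, and its log2 fold change of 0.74 was not called. Of 7 markers of border-associated macrophages 3 were higher (Folr2, Clec10a and Lyve1), with summed levels, also as log2, of 10.3 to 10.5 and 10.5 to 11.5. Mrc1 (0.06), F13a1 (0.07), Cd163 (0.17) and Pf4 (0.25) were not called. Mrc1 was well above background in 2 RA and 2 vehicle channels. Of 9 neutrophil markers 2 were higher (S100a9 and Csf3r), with summed levels of 9.63 to 9.92 and 9.79 to 11.2. Elane and Mmp8 were not well above background on any array. S100a8, at 0.94, and Cxcr2, at 0.09, were not called. S100a8 was well above background in 8 RA and 7 vehicle channels, and Cxcr2 in 4 and 1. Among lymphocyte markers 0 of 8 were called, against 4 higher without arrays 3 and 4 (Cd3d, Nkg7, Cd3g and Cd8a). Of the 8 markers 1 was well above background in the vehicle channel of every array, which limits their ratios. Cd3g was well above background in 6 RA and 2 vehicle channels, and Cd8a in 5 and 1. Without arrays 8 and 5 the counts of higher genes were 3 for monocytes, 2 for border-associated macrophages and 0 for neutrophils, and without arrays 6 and 7 they were 3, 2 and 3. With Agilent's log ratio the monocyte count was 1. Their part in the values of Csf1r and Spi1, which these cells also express, was not tested.

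Among markers of other brain cells, calls ran in both directions. Of 11 astrocyte genes Gfap rose by 1.40, and Slc4a4 and Gja1 fell by 0.28 and 0.22 on the log2 scale. Of 10 oligodendrocyte genes 2 were lower (Ermn and Opalin), of 11 neuronal genes 2 were lower (Nefm and Nefl), and of 15 hypothalamic genes 1 was lower (Cartpt). Without arrays 6 and 7 the counts of lower genes were 0 for astrocytes, 2 for oligodendrocytes and 0 for neurons, without arrays 8 and 5 they were 0, 1 and 2, and without arrays 3 and 4 they were 5, 6 and 0. On the brightest probe of each gene, the fall of Tmem119, at -0.52, lay beyond those of these 7 genes, the largest of which was -0.42 for Cartpt. The second Tmem119 probe, at -0.19, lay short of all 7, and the mean of both its probes, at -0.35, lay short of Cartpt and of Nefm (-0.39).

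The genes whose 8 ratios were most like those of Tmem119 were Hps4 (Pearson r = 0.97), Trh (0.96), Stk32b (0.94), Psenen (0.94) and Tac3 (0.93), and 18 of 10869 genes well above background had r over 0.9. These are descriptions over 8 arrays, of which some carry the same RNA. None of the 5 passed the threshold itself, with log2 fold changes between -0.09 and 0.18.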

How the data were processed

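Hypothalamic RNA was read on 8 2-colour Agilent arrays with dye-swap. The authors deposited scanner intensity values from Feature Extraction 10.7.3.1 (median spot and local background signals), a log10 ratio of Cy5 over Cy3 per spot, and a table of loess log2 ratios, which correlated with loess ratios without background correction turned to RA over vehicle at r of 0.985 or more on each array; its direction was set in this way. limma 3.58.1 in R 4.3.3 applied normexp (offset 50) to the median signals, and loess within arrays. Control and outlier spots were left out, and saturated spots kept. Spots of a probe were averaged, and channel levels scaled with Aquantile. Of 30367 probes, 18006 (59.3%) matched a RefSeq gene by accession. A probe was well above background where at least 0.5 of its spots carried that flag. The mean of 4 pairs of arrays of opposite dye order was tested against 0 for all 24 pairings, and the largest p and its SE were kept, with Benjamini-Hochberg adjustment over all probes. A call is an unadjusted p under 0.01. In data simulated for this comparison with 200 of 30347 probes changed, 94% were recovered at a log2 change of 0.5 and 0.644% of unchanged probes were called. The simulation used normal noise with each probe's SD, a pair share of 0.5 of the variance and a dye effect. It held no effect of slide row or tissue content. In the data the correlation within pairs was estimated at -0.22 to 0.37. The 94% is a share over many probes and does not hold for each member. The number of arrays limits the precision.

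The members and lists were chosen with earlier results of these data known. Genes named are all members, list genes past the threshold or, where none or over 5 passed, up to 5 with the smallest p, and the 5 genes most like Tmem119. Il34, Cx3cl1, Tgfb1, Tgfbr1, Runx1, Irf8, Mef2a, Slc2a5, Trem2, Ccr2, Elane and Mmp8 were named after their values were seen. So were Laptm5, Ctss, Lpl, Apoe, Axl, Cd9, Cd74, Ly6c, S100a8, Cxcr2, Mrc1, F13a1, Cd163 and Pf4. Some list genes that were counted are not reported here by name.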

Additional observations from a re-analysis of the deposited data

How the results depend on the processing

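Tmem119 was lower in all 34 alternatives (log2 fold change -0.70 to -0.35) and was called in 25 of them. It was not called with plain background subtraction (-0.65), with Agilent's log ratio (-0.70) or on slide row 1 alone (-0.39). With each of 16 pairs of arrays of opposite dye order left out in turn it was called in 10, with values from -0.68 to -0.44. It was missed without arrays 3 and 4, 3 and 7, 6 and 4, 6 and 7, 8 and 4, and 8 and 5. Csf1r was above 0 in all 34 (0.05 to 0.69) and called in 7. The count of members called was 0 with plain subtraction, Agilent's log ratio and slide row 1, and 2 with a random block of the pair, 8 independent arrays, the smallest p over the pairings, only RA in Cy3, slide row as a block and slide row 2, and 0 to 2 with a pair of arrays left out. Of 30367 probes 988 were called, against 237 with plain subtraction, 330 with Agilent's log ratio, 1646 with the random block, 2481 with 8 independent arrays, 3907 with the smallest p, 2161 with only RA in Cy5, 2317 with only RA in Cy3, 3111 with the row block and 455 to 1111 with a pair left out (455 without arrays 8 and 5). The adjusted threshold of 0.05 was passed by 0 probes, against 238 with the random block, 935 with 8 independent arrays, 2910 with the smallest p, 2060 with the row block, 81 on row 1, 608 on row 2, 5 with scaling between arrays, 2 with only RA in Cy3 and 21 without arrays 1 and 2, and by 0 members, against 1 with 8 independent arrays, 1 without arrays 1 and 2, and 2 with the smallest p, the row block and row 2. The sign turned with only RA in Cy5 for P2ry13 (0.048) and Sall1 (0.026), on slide row 1 for Sall1 (0.015) and Olfml3 (0.0050), with arrays 3 and 4 left out for P2ry12 (0.015, in a range from -0.23 over the left-out pairs), and in 5 of 16 left-out pairs for Sall1, which ranged from -0.074 to 0.041. The cause of these moves was not tested. The counts of lists with arrays left out were added after seeing the data. The fit pairs arrays of opposite dye order in all 24 ways. No analysis by the true pairs alone was possible. The dye orders share no replicate numbers and the labels do not say which arrays carry the same RNA. P2ry13 was well above background on 7 RA channels, which limits its ratio.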
